A study of Mus musculus with 2 samples.

Results

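Mast cells lying in 2 sympathetic ganglia of the mouse, the celiac and the superior mesenteric, were chosen by the measured levels of their granule proteases in single-cell RNA data. A cell barcode was kept when Cpa3, Mcpt4, Cma1 and Tpsb2 together gave at least 20 of every 10000 of its unique molecular identifiers (UMIs, 1 per captured RNA molecule) and the complement genes C1qa, C1qb and C1qc gave fewer than 20. This left 150 of 24873 barcodes, 75 in each of 2 libraries. The share was 0.596% (95% exact binomial interval 0.469 to 0.746) in library 1 and 0.611% (0.481 to 0.765) in library 2. Intervals of this kind, and the limits given for genes without a UMI, cover counting error only.

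The ganglia are sympathetic relays for the abdominal organs, and they were dissected from mice aged 7 to 8 weeks, digested and dissociated. The study used 20 animals, males and females in equal number, with no strain or genotype stated in the labels. Both libraries (CGSMG1 and CGSMG2, made with 10x Genomics 3' v3.1 chemistry) belong to 1 group, so each comparison sets mast barcodes against other barcodes of the same suspensions. The labels do not tie animals to a library, so p-values measure only the spread between these libraries, which may be technical.

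Mast cells are resident immune cells that store histamine, proteases and heparin-like proteoglycans in granules and release them when IgE bound to the receptor FcεRI is crosslinked by antigen. They can also be triggered without IgE, in mice through the peptide receptor Mrgprb2. In connective tissue they depend on the receptor Kit and its ligand, stem cell factor, and they often lie close to nerves and vessels. Mouse connective-tissue mast cells carry the chymase gene Mcpt4, the chymase-family gene Cma1 (whose product cleaves like an elastase), the tryptase gene Tpsb2 and the carboxypeptidase gene Cpa3, whereas mucosal mast cells carry Mcpt1 and Mcpt2.

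The promoter side of these genes is shown because GATA2, a transcription factor that mast cells need, binds GATA motifs. The 250 bases before the RefSeq start site (GRCm38.p6) follow for 3 genes of the rule and for Ms4a2, the β chain of FcεRI. Each runs 5′ to 3′ along the gene, and capitals mark every GATAA and its reverse complement TTATC.
Cpa3, chr3:20242182-20242431, minus strand: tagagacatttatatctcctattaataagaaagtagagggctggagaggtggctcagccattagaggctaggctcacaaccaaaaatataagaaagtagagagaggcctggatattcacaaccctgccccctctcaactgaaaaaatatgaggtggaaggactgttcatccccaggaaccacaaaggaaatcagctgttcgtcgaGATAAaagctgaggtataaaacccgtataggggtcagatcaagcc
Mcpt4, chr14:56062311-56062560, minus strand: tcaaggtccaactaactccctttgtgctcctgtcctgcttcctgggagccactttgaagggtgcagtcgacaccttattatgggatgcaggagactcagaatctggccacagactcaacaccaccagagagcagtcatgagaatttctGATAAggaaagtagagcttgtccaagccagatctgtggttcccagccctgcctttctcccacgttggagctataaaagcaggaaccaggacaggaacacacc
Cma1, chr14:55944676-55944925, minus strand: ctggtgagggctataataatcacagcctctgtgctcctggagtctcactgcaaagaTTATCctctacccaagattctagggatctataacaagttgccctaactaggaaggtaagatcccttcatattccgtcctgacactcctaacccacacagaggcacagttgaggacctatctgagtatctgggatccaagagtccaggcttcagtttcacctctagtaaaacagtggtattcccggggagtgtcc
Ms4a2, chr19:11623720-11623969, minus strand: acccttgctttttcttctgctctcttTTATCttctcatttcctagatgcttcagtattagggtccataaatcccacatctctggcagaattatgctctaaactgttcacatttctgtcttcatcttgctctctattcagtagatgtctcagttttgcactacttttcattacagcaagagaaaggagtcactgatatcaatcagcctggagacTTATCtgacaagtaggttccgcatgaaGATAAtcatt
Cpa3 held the motif once, starting 45 bases before the start site, Mcpt4 once at 102 and Cma1 once at 194. Ms4a2 held it at 224, 37 and 10 bases before its start. Of 19 mast genes asked for, the 4 proteases and 15 further markers, 16 were found in the table and 10 of them held the motif. Of all 27025 genes in the table, 25.5% held it in at least 1 window. Of all 32851 windows of this length, 22.6% held at least 1 and 4.28% held 2 or more. Tpsb2, Tpsab1 and Maob had no entry. A match is a stretch of letters and was not tested as a binding site.

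The score that chose the members spread widely and is given as a description. Its median was 813 per 10000 in library 1 and 597 in library 2, and its highest value was 1753 and 2026. The lowest members had 23.5 and 21.4, and the highest barcodes just outside the threshold had 19.9 and 19.5. Scores from 10 to 20 were found in 77 and 78 barcodes, about as many as there were members. Members fell into 60 and 62 barcodes at or above 100, called high-score members below, and 15 and 13 from 20 to 100, called low-score members. A further 13 and 5 barcodes met the mast score but not the C1q limit. All 4 protease genes had a UMI in every high-score member, but in only 7 of 15 and 6 of 13 low-score members.

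Mast genes outside the rule told the high-score and low-score members apart. Of 15 such genes (Kit, Tpsab1, Fcer1a, Ms4a2, Hdc, Gata2, Il1rl1, Mrgprb1, Mrgprb2, Rgs13, Cd200r3, Hs3st1, Slc18a2, Maob and Cyp11a1), high-score members had a UMI of 10 in the median in library 1 and of 11 in library 2. With each barcode thinned at random to 1500 UMIs, 3 or more of them were found in 57 of 60 and 59 of 62 high-score members and in 2 of 15 and 4 of 13 low-score members. In endothelial barcodes, which should lack these genes apart from a few, the thinned shares were 0.837% and 0.952%. Without thinning 3 or more were found in 57 of 60 and 62 of 62 high-score members and in 8 of 15 and 6 of 13 low-score members. Unthinned endothelial barcodes gave 22.9% and 21.7%. Their median depth was 8293 UMIs in library 1 and 8855 in library 2, while mast barcodes had 2894 and 3385. At equal depth, markers outside the rule thus bear out the name mast cell in nearly all high-score members and in few low-score members.

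**Figure D1:**
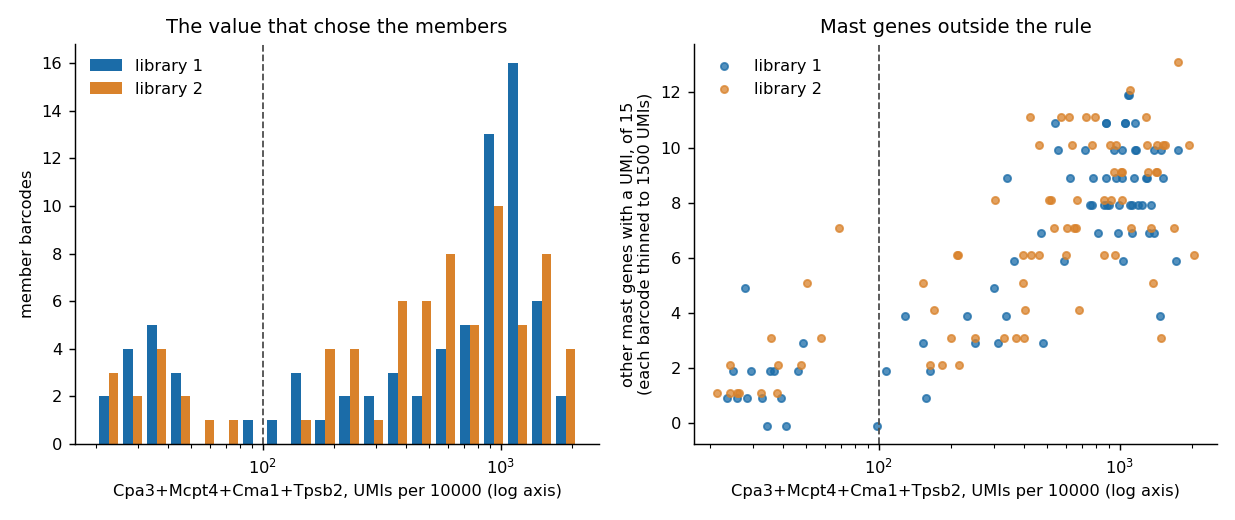
Left, number of mast barcodes by score, the UMIs of Cpa3, Mcpt4, Cma1 and Tpsb2 per 10000 UMIs on a log axis, for library 1 and library 2. Right, the number of 15 other mast genes with a UMI in each barcode after thinning to 1500 UMIs, against the same score, with points of library 1 and library 2 set slightly apart in height. The dashed line marks a score of 100, and nearly all barcodes with 3 or more of the other genes lie to its right.

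In sum, low-score members carried more RNA of neurons than high-score members. The summed level of 10 neuron genes was 12223 CPM (UMIs scaled to 1000000 per population) in library 1 and 12418 in library 2 among low-score members. High-score members had 2208 and 2176, C1q macrophages 2106 and 1846 and all other barcodes 2856 and 2792. A few barcodes gave much of this: the median low-score member had 48.8 and 63.2 UMIs of these genes per 10000, and the median high-score member 23.1 and 20.5. In library 1 the sums of low-score members were also above those of high-score members for fibroblast genes (8630 against 1909 CPM), satellite glia genes (9291 against 4711) and dendritic genes (1973 against 369). In library 2 these were below (2990 against 4760, 5030 against 6756 and 111 against 360). Low-score members held 113556 of 368082 mast UMIs in library 1 and 63215 of 363245 in library 2, so mast sums below also carry their RNA. Single barcodes weighed on these sums: 1 barcode of library 1 held 335 of 707 UMIs of Npy, the neuropeptide Y gene, and 1 of library 2 held 185 of 465. Scrublet, a caller of droplets with more than 1 cell, marked 9 and 3 members, or 12% and 4%, against 4.45% and 5.09% of all barcodes. Of the marked members, 4 in library 1 and 0 in library 2 were low-score members.

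Barcodes present in both libraries numbered 64, and 3 of these pairs held a member. In each such pair 1 copy was a high scorer and the other was close to the threshold: 1345 beside 21.4, 950.0 beside 35.6 and 1738 beside 14.6 per 10000. Among the remaining 61 shared pairs no score exceeded 6.87. Of the low-score members of library 2, 2 were thus copies of barcodes that were high-score members of library 1. Without all shared barcodes 145 members remained, and the counts of called genes given below moved by less than 1.5 times.

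**Figure D2:**
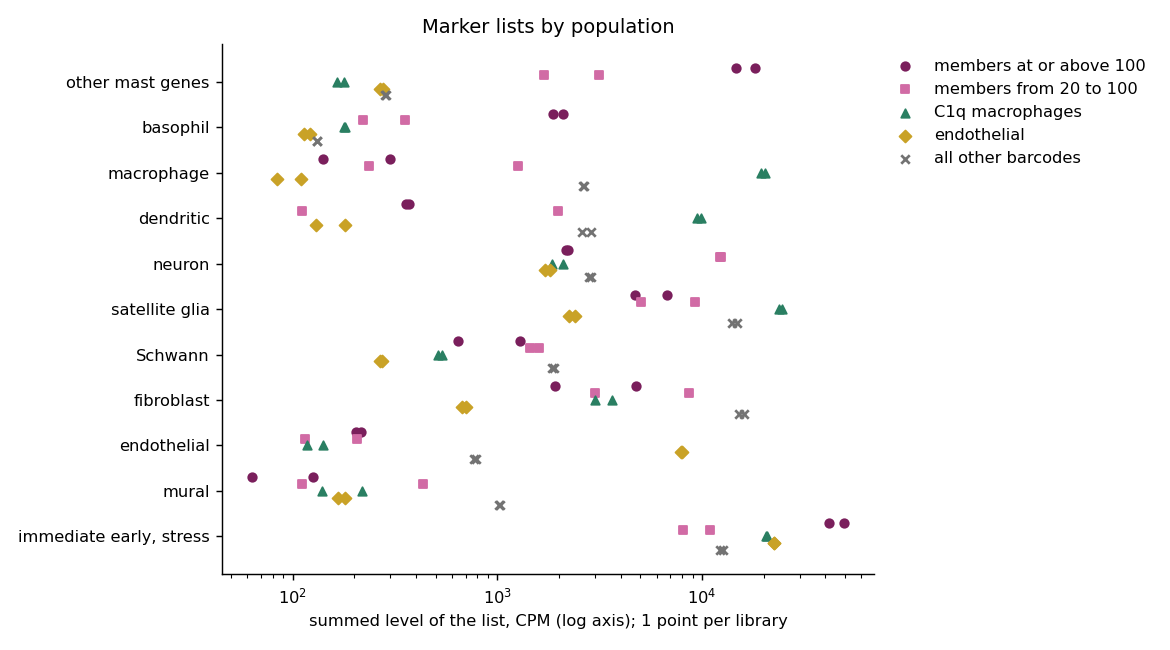
Summed level of each marker list in CPM on a log axis, with 1 point per library for high-score members, low-score members, C1q macrophages, endothelial barcodes and all other barcodes. Low-score members lie at 12223 and 12418 CPM for neuron genes and high-score members at 2208 and 2176, while for immediate early and stress genes the order is turned.

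Markers of other immune cells were measured in the members as well. Mcpt8, the basophil protease, had 0 UMIs in library 1 and 3 in library 2. The basophil list as a whole summed to 1557 and 1580 CPM, but it shares Fcer1a, Gata2 and Cd200r3 with mast cells. The 8 T-cell genes summed to 21.7 and 13.8 CPM, near the 13.9 and 15.9 of all other barcodes, with Cd3e, Cd3g, Trbc2, Cd28 and Lck at 0 in both libraries. Most of that sum was Il7r, the interleukin 7 receptor, with 6 and 5 UMIs, which was higher than in all other barcodes (log2 fold change 2.26, edgeR adjusted p = 0.0265), a call that did not hold under all alternatives. The 7 macrophage genes outside the rule summed to 334 and 264 CPM, against 10924 and 10713 in C1q macrophages and 1503 and 1521 in all other barcodes. The 8 dendritic genes summed to 864 and 317 CPM, against 9451 and 9847 in macrophages and 2600 and 2881 in all other barcodes. Cd74 gave 170 and 69 of their UMIs, while Xcr1 and Itgax were at 0 in both libraries.

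Gene levels were compared on sums per library, with the library as a block and without the 7 genes of the rule. A call means an adjusted p under 0.05 (edgeR's quasi-likelihood test, Benjamini-Hochberg adjustment). Against all other barcodes, 1073 genes were higher and 1209 lower in mast barcodes of 9839 tested, that is 10.9% and 12.3%, or 23.2% in either direction. Against C1q macrophages (1242 and 1246 barcodes with a C1q score of 20 or more), 1661 were higher and 2008 lower of 9430, that is 17.6% and 21.3%, or 38.9% in either direction. The median log2 fold change over all genes tested was -0.04 and -0.02. With no scaling beyond the totals, the second comparison gave a median of 0.20 and turned the split to 2169 higher and 1496 lower. The first comparison leaned on the filter: with edgeR's own filter, filterByExpr, 167 genes were higher and 11 lower. How many calls held under all 9 alternative fits is therefore given with the main list counts below. The low-count filter of the main fits asked for at least 10 UMIs expected at the mast total. Genes near 0 in the other population passed it only through mast barcodes and could not be called lower. List counts below that hold such genes are descriptions. Both comparisons use the same mast sums and are not independent of each other, and mast barcodes are shallower than those they are set against.

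All 15 of the further mast genes were higher than in all other barcodes and higher than in C1q macrophages, with median log2 fold changes of 9.32 and 8.94. Most of them passed the low-count filter only through their level in mast barcodes, so that count is a description. The calls of 12 of the 15 held under all 9 alternatives in the first comparison and of all 15 in the second. Kit, the stem cell factor receptor, stood at 1266 CPM in library 1 and 1302 in library 2, against 40.1 and 41.3 in all other barcodes (log2 fold change 5.16, SE 0.15, edgeR adjusted p = 0.000141). A Kit UMI was found in 63 of 75 members of each library, or 84.0% (73.7 to 91.4), against 4.32% and 7.14% of endothelial barcodes. The Kit ligand gene Kitl was lower in mast barcodes, 48.9 and 66.1 CPM against 174 and 170 (-1.40, SE 0.22), and stood highest in endothelial barcodes with 908 and 863 CPM. The call of Kitl was lost without the low-count filter, with filterByExpr and with each barcode thinned to 1500 UMIs.

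The granule proteases took a large part of the RNA of high-score members in sum. Over all members, low-score ones included, Mcpt4 stood at 26133 and 28997 CPM and Cma1 at 15363 and 15953. Cpa3 stood at 10794 and 10822 and Tpsb2 at 8607 and 8865 over the same members, and all 4 genes chose the members. Together these proteases made up 8.63% and 7.75% of the UMIs of high-score members but 0.387% and 0.364% of those of low-score members. In all other barcodes Mcpt4 stood at 23.9 and 23.2 CPM and Cpa3 at 8.55 and 7.68. After thinning, all 6 pairs of these genes were positively related across high-score members. Spearman coefficients ran from 0.45 (Mcpt4 and Tpsb2) to 0.73 (Cpa3 and Tpsb2) over the 60 barcodes of library 1. They ran from 0.59 (Cma1 and Cpa3) to 0.83 (Cpa3 and Tpsb2) over the 62 of library 2. These are descriptions across barcodes that share a library and a fixed depth, and the genes enter the rule.

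Few genes of the protease loci had many UMIs in mast barcodes. The chymase locus, chromosome 14 from 55941451 to 56262260 (GRCm38, GENCODE M21), holds 15 protein-coding genes from Cma1 to Gzmb, and 3 of these reached 10 UMIs in mast barcodes while 8 had none. Mcpt4 had 9619 and 10533 UMIs, Cma1 5655 and 5795 and Cma2 24 and 16. Mcpt1, a protease of mucosal mast cells, had no UMI in mast barcodes, nor had its neighbour Mcpt9, and Mcpt2 had 3 and 1. Ctsg, the cathepsin G gene, had 0 and 9 UMIs, the latter in 3 barcodes.

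The tryptase locus, chromosome 17 from 25298394 to 25374442, holds 6 genes, of which 4 reached 10 UMIs. Tpsab1 stood at 826 and 719 CPM against 1.40 and 1.32 in all other barcodes (log2 fold change 9.32, SE 0.18), and Tpsg1, a membrane-anchored tryptase, at 193 and 176 (8.74, SE 0.21). Prss34, a tryptase-like gene that basophils also use, had 45 and 20 UMIs, found in 11 and 5 barcodes, and 1 barcode of library 2 held 15 of its 20. Chymase and tryptase genes have near-identical copies, so how reads were split among them is uncertain. Of 14 further protease genes, 8 had too few UMIs to test. Tpsab1, Tpsg1, Cma2 and Prss34 passed that filter only through their level in mast barcodes, so their count is no support of its own. The other 2 tested were higher in both comparisons, the lysosomal protease gene Ctsd (1.59 and 0.48) and Adamts9 (2.35 and 5.18), a metalloprotease gene that endothelial barcodes also carried at 862 and 950 CPM. The call of Ctsd did not hold under all alternatives in either comparison.

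**Figure D3:**
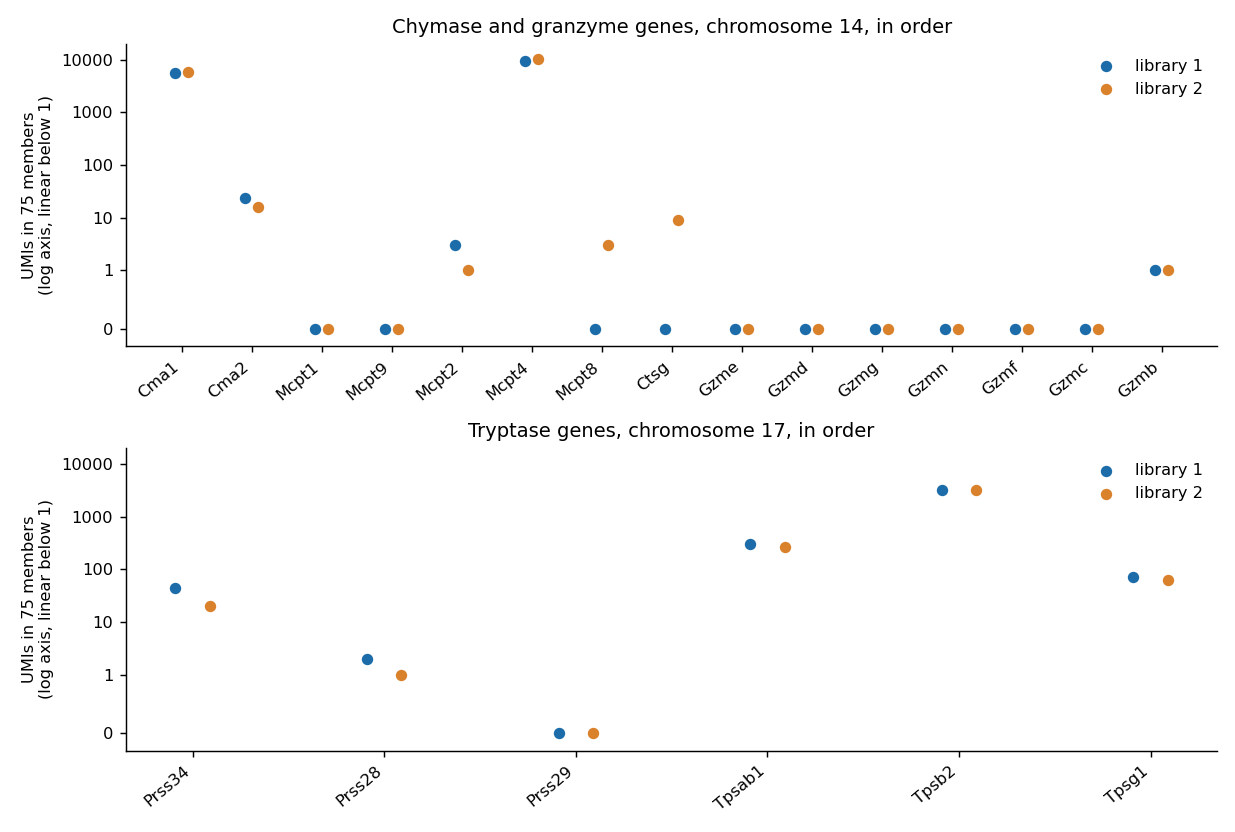
UMIs of each protein-coding gene in the 75 mast barcodes of each library, on a log axis that is linear below 1, for the chymase locus (top) and the tryptase locus (bottom) with genes in genomic order. Mcpt4 and Cma1 reach 5655 UMIs or more in both libraries, and their neighbours Mcpt1, Mcpt9 and the granzyme genes from Gzme to Gzmc have none.

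Genes that make, load and break down amines were higher in mast barcodes for most of those tested. Hdc, which makes histamine from histidine, stood at 5713 and 5445 CPM against 3.58 and 3.46 in all other barcodes (log2 fold change 10.81, SE 0.18, edgeR adjusted p = 9.14e-05), the largest value of that comparison among genes with at least 10 UMIs per library. Serotonin genes were present as well: Tph1, the first enzyme of its synthesis outside the brain, had 234 and 259 CPM against 0.447 and 0.359 (9.43), and Slc6a4, the serotonin transporter gene, 459 and 562 against 1.37 and 1.47 (8.66). Slc18a2, which loads amines into vesicles and is also used by sympathetic neurons, had 644 and 526 CPM against 151 and 143 (2.16, SE 0.14). Maob, a monoamine oxidase gene, had a log2 fold change of 3.38. In all, 6 of 8 tested amine genes were higher and none lower against all other barcodes, and 7 of 8 were higher against macrophages. In the first comparison Hdc, Tph1 and Slc6a4 passed the low-count filter only through their level in mast barcodes, as did Hdc in the second. Both counts are descriptions. Ddc, the decarboxylase gene that neurons share, passed at 0.82 but stood at 0.51 (adjusted p = 0.153) in high-score members alone. Calls of 4 and 5 amine genes held under all alternatives.

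Granule matrix and secretion genes were higher for 11 of 24 tested, and none was lower, against all other barcodes. Ndst2, Rab27b and Serpinb1a passed the low-count filter there only through mast barcodes, so that count is a description. Against macrophages 11 of 23 were higher and 4 lower. Srgn, the serglycin core protein that carries heparin chains, stood at 2336 and 2139 CPM against 201 in each library (3.66, SE 0.14). Ndst2, the sulfotransferase of heparin synthesis, had 120 and 124 CPM against 8.70 and 9.35 (3.93), whereas its relative Ndst1 had 29.9 and 41.3 against 50.5 and 52.4 and did not pass (-0.35, adjusted p = 0.374). Ext1, of the heparan chain polymerase, was higher by 2.83, and its partner Ext2 stood at -0.85 and did not pass either. Hs6st2, a further heparan sulfotransferase gene outside the list, reached 1065 and 1041 CPM against 1.26 and 1.71 (9.66).

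Rab27b, a Rab protein of granule docking, had 581 and 573 CPM against 6.14 and 6.54 (6.69), and Serpinb1a, an inhibitor of granule proteases, 1896 and 1814 against 6.36 and 6.39 (8.36). Cd63, a granule membrane protein, was higher by 1.48, while Lamp1, a general lysosomal protein, did not pass (-0.51) and was lower than in macrophages (-1.47). Calls of 6 higher genes held under all alternatives in the first comparison, and of 9 higher and 3 lower genes in the second.

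Of 11 eicosanoid and related lipid enzyme genes, 4 were higher and 3 lower than in all other barcodes, and 1 was higher and 6 lower than in macrophages. Hpgds, which makes prostaglandin D2, had 190 and 297 CPM against 32.1 and 35.1 (3.02, SE 0.21) and 247 and 261 in macrophages, where the difference did not pass (-0.21, adjusted p = 0.387, and 0.0052 without scaling). Ltc4s, the leukotriene C4 synthase gene, had 2 UMIs in each library, or 5.43 and 5.51 CPM, against 184 and 168 in macrophages (-5.14, SE 0.38). Ptgs2, the inducible cyclooxygenase gene, had no UMI in mast barcodes. Cyp11a1, the side-chain cleavage enzyme that starts steroid synthesis, stood at 459 and 479 CPM against 0.691 and 0.749 (9.52, SE 0.19), and in this list it was the sole gene whose call held under all alternatives in the first comparison. In the second, calls of Cyp11a1 and of 4 lower genes held. Cyp11a1 passed the low-count filter only through mast barcodes in both comparisons, so both counts are descriptions.

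All 3 chains of the IgE receptor were higher than in all other barcodes, and the α and β chains were also higher than in macrophages. The α chain Fcer1a had 348 and 377 CPM against 0.553 and 0.443 in all other barcodes (9.68, SE 0.23), and the β chain Ms4a2 had 299 and 341 against 0.308 and 0.348 (10.10, SE 0.21). The γ chain Fcer1g, which macrophages use for other Fc receptors, had 1214 and 1220 CPM against 216 and 200 in all other barcodes (2.73, SE 0.14). Macrophages had 1524 and 1359 CPM of Fcer1g, a difference that did not pass (-0.38, adjusted p = 0.0629, and 0.08 in high-score members alone). Downstream, the adaptors Lat2 (261 and 284 CPM, 5.17) and Lat (32.6 and 46.8 CPM, 6.30) were higher than in all other barcodes, as was the kinase gene Prkcb (4.13). Lyn, the kinase that starts the cascade, was higher than in all other barcodes (1.87) and lower than in macrophages (-0.66). Both calls of Lyn were lost without the low-count filter and with filterByExpr, and the second also with DESeq2 and in high-score members alone. Syk, the next kinase, did not pass against all others (0.81, adjusted p = 0.0655) and was lower than in macrophages (-1.78). In high-score members alone Syk was called higher than in all others.

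Over the list, 16 of 24 IgE receptor genes were higher and none lower than in all other barcodes, and 10 were higher and 8 lower than in macrophages. In both comparisons Fcer1a and Ms4a2, among others, passed the low-count filter only through mast barcodes, so both counts are descriptions. Calls of 5 genes held under all alternatives in the first comparison and of 8 higher and 4 lower genes in the second.

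Among growth factor and cytokine receptors, 12 of 17 were higher and 1 lower than in all other barcodes, and 7 were higher and 5 lower than in macrophages. Il1rl1, the interleukin 33 receptor ST2, had 929 and 829 CPM against 5.48 and 5.61 in all other barcodes (7.49, SE 0.17). It passed the low-count filter there only through mast barcodes, so the count against all other barcodes is a description. Csf2rb, the shared β chain of the interleukin 3 and GM-CSF receptors, had 114 and 187 CPM (3.25), and Il2rg, the common γ chain, 114 and 110 (3.90). Csf1r, on which macrophages depend, had 7 and 3 UMIs and was lower in both comparisons (-2.83 and -6.11). Calls of 3 genes, Kit, Il1rl1 and Il2rg, held under all alternatives in the first comparison, and of 4 higher and 3 lower genes in the second.

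Of 27 genes of a list of G-protein-coupled, inhibitory and further receptors tested against macrophages, 16 were lower and 9 higher. The list also holds ATP-gated channels and Toll-like receptors. Against all other barcodes 11 of 26 were higher and 5 lower. In both comparisons Mrgprb1 and Mrgprb2 passed the low-count filter only through mast barcodes. Against all other barcodes Adora3 and P2rx1, among others, did so too. Both counts are descriptions. Mrgprb2 had 272 and 206 CPM against 0.372 and 0.359 in all other barcodes (9.52, SE 0.22). Mrgprb1 had 663 and 928 (9.85), and Mrgprx2, outside the list, 225 and 278 (9.97). These receptors are close relatives, so the split of reads among them is uncertain. A Mrgprb2 UMI was found in 42 members of each library, or 56.0% (44.1 to 67.5), against 0.558% and 0.317% of endothelial barcodes. Adora3, an adenosine receptor, had 196 and 198 CPM against 1.33 and 1.41 (7.34), and P2rx1, an ATP-gated channel, 67.9 and 55.1 (7.69). The anaphylatoxin receptor genes C5ar1 and C3ar1 had 1 UMI each over both libraries, against 35.3 and 35.4 CPM and 31.4 and 32.9 CPM in all other barcodes. Calls of 6 receptors held under all alternatives in the first comparison, and of 7 higher and 13 lower ones in the second.

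**Figure D4:**
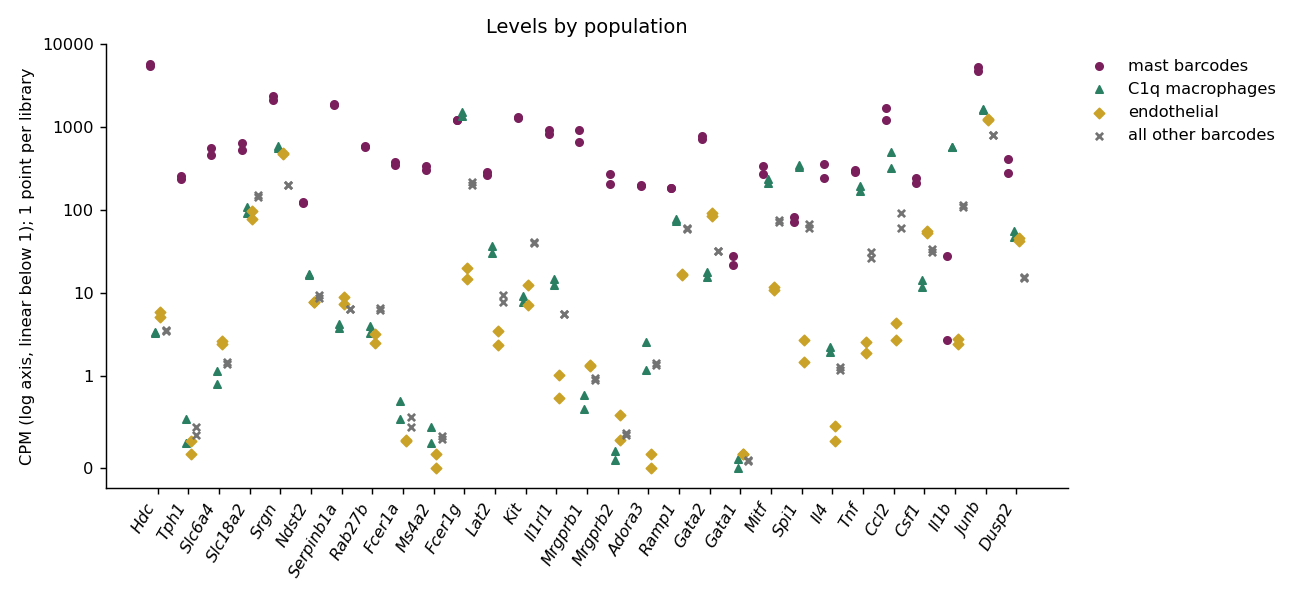
Level of 29 genes in CPM, on a log axis that is linear below 1, with 1 point per library for mast barcodes, C1q macrophages, endothelial barcodes and all other barcodes. Hdc, Kit and Mrgprb2 lie far above the other populations, Fcer1g is as high in macrophages, and Spi1 and Il1b are higher in macrophages than in mast barcodes.

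Receptors for transmitters and peptides of autonomic and sensory nerves were mostly below the count needed for a test. Of 38 such genes, 13 had enough UMIs to test against all other barcodes, and 1 was higher and 4 were lower. Over all genes tested the shares were 10.9% and 12.3%. Ramp1, the accessory protein that makes the CGRP receptor, stood at 182 and 184 CPM against 60.6 and 58.8 (1.80, SE 0.16) and remained higher in high-score members alone (1.98). Its call was lost without the low-count filter, with filterByExpr and in no other alternative. Calcrl, the receptor that Ramp1 joins, was lower (29.9 and 38.5 CPM against 76.0 and 75.7, -0.97, adjusted p = 0.0483), but not in high-score members (-0.45, adjusted p = 0.280).

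Tacr1, the substance P receptor gene, had no UMI in mast barcodes and 47 and 52 UMIs in all others, so its level in mast barcodes was not resolvable at this depth. Against macrophages 8 of 12 of these genes were higher and 3 lower, and the calls of Ramp1 alone among the higher ones and of 2 lower ones held under all alternatives. In high-score members alone 1 of 8 was higher and 2 were lower than in macrophages. Over all 8063 genes tested in that fit, 968 were higher and 1256 lower. Whether the list departs from these shares was not tested. Chrm2, a muscarinic receptor gene, rested on 32 and 7 UMIs, of which 1 barcode per library held 15 and 5.

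Transcription factor genes of the mast lineage were higher for 10 of 24 and lower for 2 than in all other barcodes, and for 9 and 11 of 25 than in macrophages. Gata2 had 785 and 721 CPM against 31.5 in each library (4.76, SE 0.15), with 83.9 and 91.3 in endothelial barcodes. Gata1 rested on 8 and 10 UMIs (8.41, SE 0.60). It passed the low-count filter only through mast barcodes in both comparisons, so both list counts are descriptions. Mitf, which works with GATA2 in mast cells, had 269 and 336 CPM against 70.9 and 75.6 (2.22) and 208 and 235 in macrophages, which did not pass (0.30, adjusted p = 0.161). Hes1, a Notch target gene, had 4130 and 3361 CPM against 411 and 417 (3.35, SE 0.14). The myeloid factors Spi1 (-2.28) and Runx1 (-2.88) were lower than in macrophages, and neither passed against all others. Calls of Gata2, Hes1 and Id2 held under all alternatives in the first comparison, and of 7 higher and 7 lower genes in the second.

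Of 20 cytokine and growth factor genes tested against C1q macrophages, 8 were higher and 8 lower in mast barcodes. Il4, a type 2 cytokine, had 361 and 240 CPM against 1.16 and 1.25 in all other barcodes (8.12, SE 0.25) and was found in 33 and 34 members, 44.0% and 45.3%, against 1.85% and 1.69% of macrophages. Il13 had 35 UMIs in 18 members of library 1 and 7 UMIs in 5 members of library 2, and none in macrophages. Ccl2, a monocyte chemokine, had 1684 and 1222 CPM against 492 and 316 in macrophages (1.72, SE 0.16), and Csf1, the macrophage growth factor, 242 and 209 against 11.8 and 14.2 (3.98). Osm, a cytokine of the interleukin 6 family, had 166 and 96.4 CPM against 22.8 and 23.4 (2.34). Tnf had 302 and 284 CPM against 169 and 196 (0.55), and that call was lost under 5 of 9 alternatives.

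Among the lower ones were chemokine and cytokine genes abundant in macrophages. Ccl3 had no UMI in mast barcodes against 310 and 289 CPM in macrophages, at least 73.0-fold lower by a limit of 3 UMIs over both libraries. Cxcl2 had 3 and 1 UMIs against 1200 and 1136 CPM (-7.88, SE 0.33), Ccl4 7 and 5 UMIs (-5.94) and Il1b 1 and 10 UMIs (-5.38). Against all other barcodes 9 of 19 cytokine genes were higher and 6 lower, and calls of Il4, Tnf and Ccl2 held under all alternatives. Il4 and Il13 passed the low-count filter only through mast barcodes in both comparisons, so both counts are descriptions. Against macrophages calls of 5 higher and 5 lower cytokine genes held. Of the high-score members, 52 of 60 and 58 of 62 had a UMI of Il4, Il13, Tnf, Ccl2 or Osm, 44 and 41 had 2 or more of these genes, and 5 and 3 had all 5. At least 1 was also found in 70.0% and 70.1% of macrophages and in 5.02% and 4.76% of endothelial barcodes, both more deeply sequenced. With each barcode thinned to 1500 UMIs, at least 1 was found in 51 high-score members of each library, in 38.8% and 36.8% of macrophages and in 1.12% and 1.59% of endothelial barcodes.

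Immediate early and stress genes were also higher in mast barcodes. Their list summed to 37676 and 35824 CPM in mast barcodes, 20489 and 20772 in macrophages, 22382 and 22476 in endothelial barcodes and 12283 and 12718 in all other barcodes. High-score members reached 49626 and 41676 CPM. Of 31 tested, 22 were higher and 3 lower than in all other barcodes, and of 32, 17 were higher and 7 lower than in macrophages. Junb had 5279 and 4749 CPM against 794 in each library (2.84, SE 0.13), Fos 4619 and 4496 against 1186 and 1223 (2.10), and Dusp2 277 and 410 against 15.6 and 15.2 (4.65). Atf3 (-1.73) and Btg2 (-2.46) were lower. Calls of 2 genes, Junb and Dusp1, held under all alternatives in the first comparison and of 12 higher and 5 lower in the second. These genes respond to tissue digestion, and its part in the cytokine levels was not tested.

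**Figure D5:**
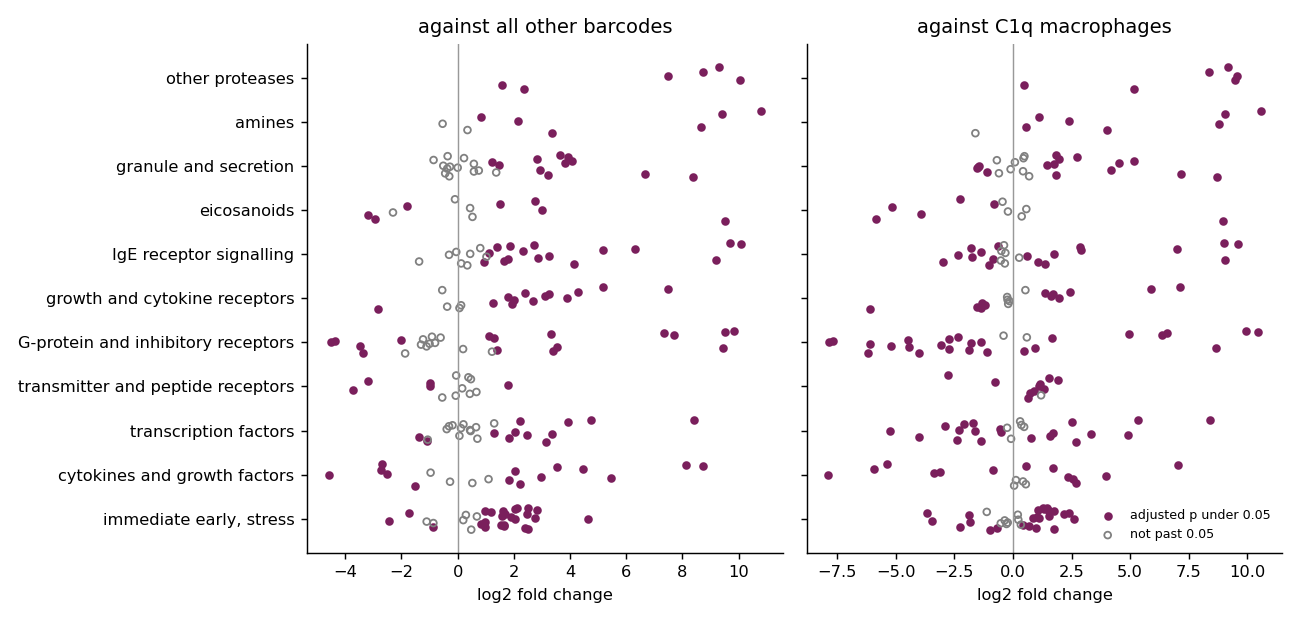
Log2 fold change of each tested gene by list, with filled points for adjusted p under 0.05 and open points otherwise, against all other barcodes (left) and C1q macrophages (right), leaving out genes with no UMI in mast barcodes or in the population they are set against. Protease and amine genes lie to the right of 0 with few exceptions in both panels, whereas G-protein and inhibitory receptors and cytokines spread to both sides. Called lower than in macrophages were 16 receptor genes and 8 cytokine genes, the latter counting Ccl3 and Il10, which had no UMI in mast barcodes and are not drawn.

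Genes outside the lists were also among those of largest difference. Rab44, a large Rab protein, had 187 and 127 CPM against 0.149 and 0.190 (10.00, SE 0.30), and Krt4, a keratin gene, 48.9 and 93.6 against 0.0957 and 0.0949 (9.68). Gm47599, a gene known by number only, had a log2 fold change of 10.26. Against macrophages Gm9758 and Gm21190, likewise known by number only, were among the 10 largest. The 10 genes of lowest fitted value in each comparison all had no UMI in mast barcodes. Against macrophages they included Cbr2, a carbonyl reductase gene of resident macrophages (at least 72.9-fold lower), Fcgr1, the high-affinity IgG receptor gene (at least 52.5-fold), and Folr2, a folate receptor gene (at least 29.9-fold), with Siglech, Clec12a, Ms4a4a, Kcnk13, Gm26740 and Gm46224. Against all other barcodes they included the fibroblast genes C7 and Aspn (at least 8.95-fold and 8.57-fold lower), the smooth muscle genes Lmod1 and Pln, and Col4a5, a basement membrane collagen gene. In that comparison these calls were lost without the low-count filter and with filterByExpr, and all but Pln also with DESeq2. With DESeq2 the calls of the genes named against macrophages were lost too, except that of Siglech. The major histocompatibility class II genes H2-Ab1 (187 and 57.8 CPM against 2180 in each macrophage sum, -4.34) and Cd74 (-4.21) were lower too, and 1 barcode of library 1 held 45 of its 69 UMIs of H2-Ab1.

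High-score members alone differed from all members in their neuron genes. Against all other barcodes 1276 genes were then higher and 1384 lower of 8661 tested. All 15 mast genes, 19 of 23 IgE receptor genes and 10 of 19 cytokine genes were higher. Neuron markers, higher for 5 of 10 in all members, were higher for none, and against macrophages the number fell from 9 to 0. Npy went from 1.23 to 0.11 and Stmn2, a tubulin regulator of neurons, from 1.07 to 0.16. Nrg1, a neuregulin gene, went from 0.53 to -2.08, and 1 barcode of library 1 held 41 of its 66 UMIs. Log2 fold changes of Hdc (11.28), Kit (5.65), Il4 (8.62) and Fos (2.57) were above those in all members.

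UMIs of X- and Y-linked genes were counted too. Of the high-score members, 24 in library 1 and 23 in library 2 had UMIs of Xist and none of 4 Y-linked genes, 6 and 12 had the reverse, 2 and 6 had both, and 28 and 21 had neither. Among all other barcodes 5295 and 5108 had Xist alone, 3643 and 3556 Y-linked genes alone and 765 and 755 both. Free RNA can give such UMIs, so no barcode was assigned a sex. Between the libraries, mast sums differed by more than counting error. Over 5704 genes with at least 20 UMIs the median chi-square was 0.721, against 0.455 for counting error alone, and the SD of the log2 ratio was 0.61.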

How the data were processed

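The authors deposited UMI counts, without normalization, for 32183 genes in 2 libraries, with Cell Ranger 6.1.2 and mm10 named per the submitters' processing notes. The annotation, cell filters and use of strand or introns are, in the sources used here, not given. Library totals were 94521010 and 95235439 UMIs. Members and gene lists were chosen with earlier results of these data known. Counts were summed per library and population. Genes with at least 10 UMIs expected at the mast total were tested with edgeR 4.0.16 (R 4.3.3; TMM, library as a block, 1 residual degree of freedom) and compared with DESeq2 1.42.0. The block comes from both populations of a pair sharing 1 suspension. The test was checked on simulated data. Scrublet (scanpy 1.11.5) marked doublets, which were kept. Macrophage barcodes had a C1q score, and endothelial barcodes a summed Cldn5, Cdh5, Pecam1 and Egfl7 score, of at least 20 per 10000 with the mast score below 20. Named genes are the rule genes, Kit, and list members chosen by level, difference or lack of UMIs. To these come, per comparison, the called genes with the 10 largest and 10 smallest log2 fold changes. Those had to move the same way in both libraries, with at least 10 UMIs per library in the population where they were higher. Hs6st2 and Mrgprx2 entered among the 10 largest. Some genes that the rule names are not reported here. A gene without UMIs was given a limit of 3 UMIs over both libraries. Motifs were searched in RefSeq promoters, and coordinates come from GENCODE M21 (GRCm38).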

Additional observations from a re-analysis of the deposited data

How the results depend on the processing

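The share of mast barcodes, 0.603%, became 1.21% at a score of 10 per 10000, 0.507% at 50 and 0.490% at 100. It ranged from 0.596% to 0.611% with either library left out. The number of genes called followed the low-count filter most closely in the comparison with all other barcodes, where 1073 were higher and 1209 lower. There the calls were 104 and 3 without a filter beyond 1 UMI, 167 and 11 with filterByExpr, and 515 and 432 with each barcode thinned to 1500 UMIs. Both populations of a library come from 1 suspension, and with no replicate block for this pairing the calls were 1719 and 1984. Against macrophages, with 1661 higher and 2008 lower, the calls were 831 and 1073 with DESeq2, 590 and 1077 without the filter, 857 and 1240 with filterByExpr, 968 and 1256 in high-score members alone and 518 and 860 after thinning. The cause was not tested. With 1 library left out, no test could be made. Removing barcodes found in both libraries was chosen after seeing the data and gave 1058 and 1197 calls, and 1566 and 1866 against macrophages.

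Genes described here whose direction turned were, against all other barcodes, Chrm2 (-2.24 in high-score members), Runx1 (0.083 in high-score members) and Nrg1 (-2.08 in high-score members, -0.053 with DESeq2). Against macrophages they were Alox5 (0.072 in high-score members), Fcer1g (0.083 in high-score members) and Hpgds (0.24 in high-score members, 0.0052 without scaling). None of these passed the threshold before. Depth limits genes with under 10 expected UMIs, which were not tested.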
